A study of Rattus norvegicus with 6 samples.

Results

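Cadherins, claudins and connexins are the adhesion, barrier and channel proteins of cell contacts, and their genes were read here in islets of the rat before and after birth. Genes were chosen by name alone: those whose symbol in the deposited table begins with Cdh, Cldn, Gja, Gjb, Gjc, Gjd or Tjp followed by a number, together with Ocln and Epcam, and without Cdh19. The rule took 64 of 18625 named genes, of which 60 had at least 1 read in some library. They comprise 18 cadherins, 25 claudins, 16 connexins and 5 others, which are tight junction scaffold genes of the Tjp group, Ocln and Epcam.

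RNA sequencing was done on freshly isolated rat islets, with 3 libraries from fetuses at embryonic day 19 and 3 from animals after birth. All postnatal titles say 2 weeks, but by their age labels replicate 1 was at week 2, replicate 2 at week 3 and replicate 3 at week 4. The later group is therefore called postnatal, and within it age cannot be told apart from library. The labels name no strain, sex, genotype or treatment. Nor do they tie each replicate to its own animals, and a p-value here speaks only of the spread among 6 libraries, part of which may be technical. The series asks how the islet transcriptome differs between these times.

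Cadherins bind their own kind across the gap between cells and hold on to actin inside through catenins, which forms the adherens junction. Claudins and occludin seal the space between epithelial or endothelial cells at the tight junction, where the Tjp proteins tie them to the cytoskeleton, and the set of claudins fixes which ions pass. Connexins dock into gap junction channels that let ions and small molecules pass from cell to cell. In the pancreas, E-cadherin (Cdh1) holds islet cells together, the connexin Gjd2 couples beta cells electrically, and Gjb1 and Gjb2 serve the acinar cells, which surround the islets and secrete digestive enzymes.

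Levels are given as scaled CPM, meaning reads scaled to a common library size that the authors had adjusted between libraries. Fetal libraries held 26.1 to 37.8 M reads and postnatal ones 28.2 to 29.5 M, and 3 reads were worth between 0.0726 and 0.152 scaled CPM. Endocrine markers, islet hormones among them, were present in every library and summed to 2503 to 6320 scaled CPM before birth and 62314 to 115105 after. RNA of other cell types was present as well. Acinar markers summed to 45360 to 68368 before birth and to 445028, 164506 and 157409 in postnatal replicates 1, 2 and 3, and hepatocyte markers summed to 6252 in fetal replicate 2 against at most 485 in the other libraries. In bulk RNA, fewer cells of a type and less RNA per cell cannot be told apart, and this holds for every level below.

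A gene was tested where at least 3 libraries reached 1 scaled CPM, which left 39 of the 64 junction genes and 12926 genes in all. After birth 14 of the 39 were higher and 19 lower (limma, Benjamini-Hochberg adjusted p under 0.05), and 6 were not called. Called genes thus made up 84.6% of the tested junction genes, against 63.1% of all genes tested. Over all genes tested 30.0% were called higher and 33.1% lower, which is the background for each count of calls below. A difference of at least 2-fold was called higher for 10 and lower for 12, against 14.8% and 12.1% of all genes tested. The fetal and postnatal values did not overlap for 31 of the 39, or 13 higher and 18 lower, against 70.0% of all genes tested. The median log2 difference of the 39 was -0.22, against -0.03 for all genes tested. These counts are a description, since 8 of the 39 lay below 1 scaled CPM in some library and so could enter the test through 1 group alone.

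The calls leaned on the scaling between libraries. Of the called junction genes 42.4% were higher with the deposited scaling, 28.6% with library sums set to 1000000 and 51.7% with a rescaling that leaves out the 20 highest genes, while the share among all called genes was 47.5%, 25.9% and 61.2%. The median of all genes moved from -0.03 to -0.36 and 0.20 on the log2 scale. Of the junction genes called with the deposited scaling, 0 changed direction under any alternative that was run. With the labelled week as a covariate 9 calls ended. Among them were those of Cdh1, Cdh5, Cdh24, Cldn1, Cldn5, Cldn8, Cldn12 and Cldn15, with adjusted p between 0.0564 and 0.447. That fit gives the difference at the earliest labelled week, which is not the difference between the group means. Each labelled week is a different library, so the fit leans on the earliest one. It cannot separate age from library, and a lost call is not read as an effect of age.

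**Figure D1:**
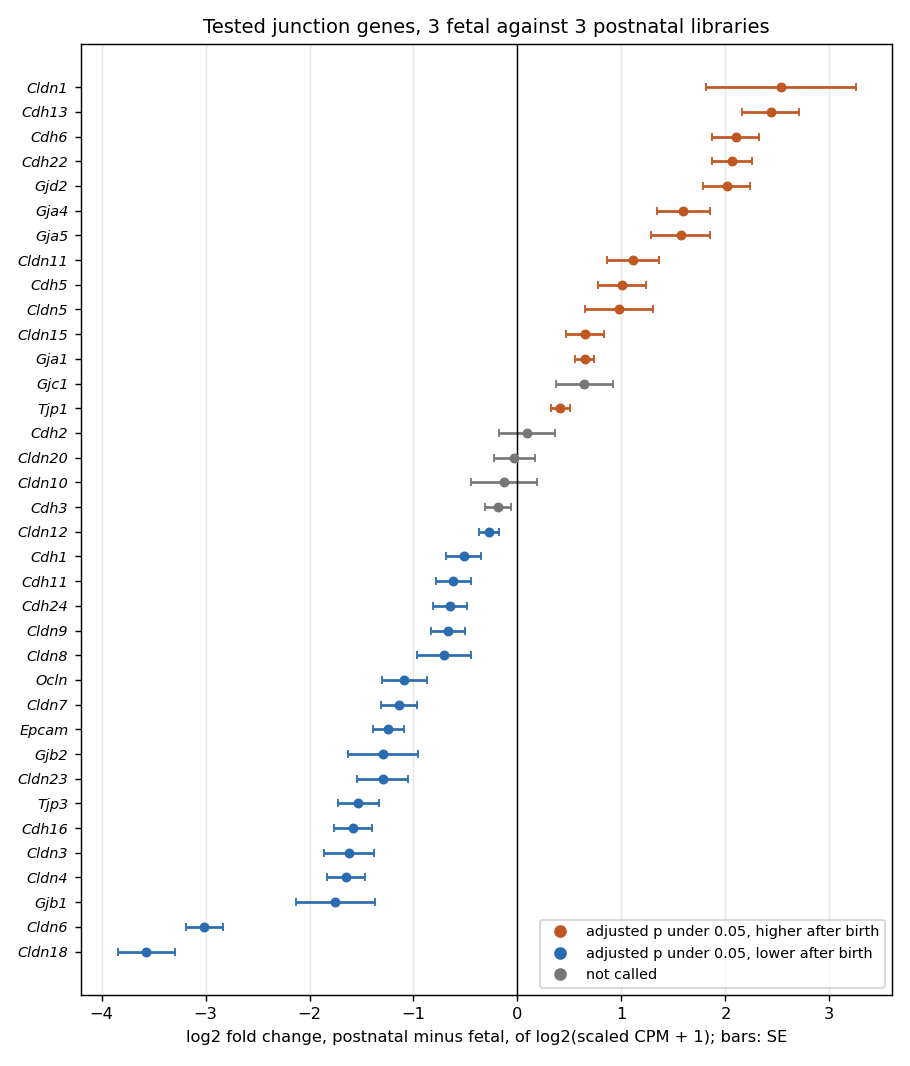
Log2 difference of 36 of the 39 tested junction genes, postnatal minus fetal, on the scale log2(scaled CPM + 1), with bars for the standard error (3 libraries per group). Colours mark genes called higher (13), lower (18) or not called (5). Cldn18 and Cldn6 lie farthest to the left, and Cldn1, with the widest bar, farthest to the right.

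Most claudins tested, and with them Epcam and Ocln, fell after birth. Of 15 claudins tested, 9 were lower and 4 higher, with a median log2 difference of -0.67, against -0.03 for all genes tested. Called claudins made up 86.7% of those tested, against 63.1% of all genes tested. The summed level of all 25 claudins was 325 ± 18.4 scaled CPM in the fetal and 168 ± 14.2 in the postnatal libraries (mean ± SD, n = 3 each). The postnatal sum was 0.517 of the fetal one, and between 0.408 and 0.609 under the other scalings.

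Cldn18, a claudin of stomach and lung epithelium, showed the largest fall of the junction genes tested. It measured 24.4, 15.2 and 12.6 scaled CPM in fetal replicates 1, 2 and 3 and 0.962, 0.241 and 0.376 in postnatal replicates 1, 2 and 3. The fetal libraries held 795, 629 and 409 reads of it, whereas the postnatal libraries held 19, 7 and 11. The mean was 33.1-fold lower after birth, and the fitted log2 difference was -3.57 ± 0.27 (SE, limma adjusted p = 5.05e-05), which understates the change of a gene this low. All postnatal values lay below the minimum of 1, so that Cldn18 entered the test through the fetal libraries alone. Its adjusted p is therefore not taken as support for a change. With edgeR on the recovered reads, over the same filtered genes, the log2 difference was -5.10.

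Cldn6, a claudin known from embryonic epithelia, measured 73.7, 57.0 and 68.9 scaled CPM before birth and 9.42, 7.19 and 5.77 after. All fetal libraries lay far above the postnatal ones, and the mean was 8.92-fold lower (log2 difference -3.01 ± 0.18, limma adjusted p = 2.31e-05). Cldn9, next to it in the RefSeq gene order, was also lower, by less (log2 difference -0.67 ± 0.16, adjusted p = 0.00813), at 2.71 ± 0.313 scaled CPM before birth and 1.35 ± 0.307 after.

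Cldn3 and Cldn4, a pair of neighbouring genes for claudins widespread in gut and gland epithelium, were lower by nearly the same amount. Cldn3 went from 56.4, 53.3 and 61.2 to 26.9, 16.5 and 12.6 scaled CPM (log2 difference -1.62 ± 0.24, adjusted p = 7.76e-04). Cldn4 went from 68.7, 48.2 and 51.5 to 14.6, 15.7 and 21.5 (-1.65 ± 0.18, adjusted p = 2.30e-04). The groups did not overlap for either gene, but the postnatal order differed: Cldn3 was highest in replicate 1 and Cldn4 in replicate 3.

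Cldn7, a partner of Epcam in epithelial membranes, fell from 36.1, 27.2 and 34.4 to 17.6, 13.8 and 11.6 scaled CPM without overlap (log2 difference -1.14 ± 0.18, adjusted p = 9.38e-04). Epcam itself, an epithelial adhesion molecule, had 372, 324 and 411 before birth and 184, 142 and 142 after. That is 2.37-fold lower in the mean, with every fetal library above every postnatal one (-1.24 ± 0.15, adjusted p = 2.85e-04). Cldn23 was lower as well, at 12.1, 9.03 and 6.29 against 4.00, 2.37 and 2.83 (-1.29 ± 0.25, adjusted p = 0.00252).

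Occludin, the other transmembrane protein of the tight junction strand, followed the same direction. Ocln measured 123, 122 and 149 scaled CPM before birth and 88.1, 52.6 and 49.3 after (log2 difference -1.09 ± 0.22, adjusted p = 0.00313). Of the scaffold genes, Tjp3 fell from 75.3, 67.9 and 73.2 to 33.9, 22.1 and 19.1 (-1.53 ± 0.19, adjusted p = 4.02e-04). In Ocln and Tjp3 the groups did not overlap and postnatal replicate 1 was the highest of its group, 1.73 and 1.65 times the mean of the other two. The span of Tjp3 overlaps that of Apba3 in the RefSeq annotation, so that reads of the 2 genes may not have been separated in counting.

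Tjp1, another scaffold gene, was called in the opposite direction to Tjp3. It was higher after birth, at 177, 189 and 189 against 147, 137 and 134 (log2 difference 0.41 ± 0.09, adjusted p = 0.00559), though with library sums set to 1000000 its log2 difference was 0.06 (adjusted p = 0.838).

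**Figure D2:**
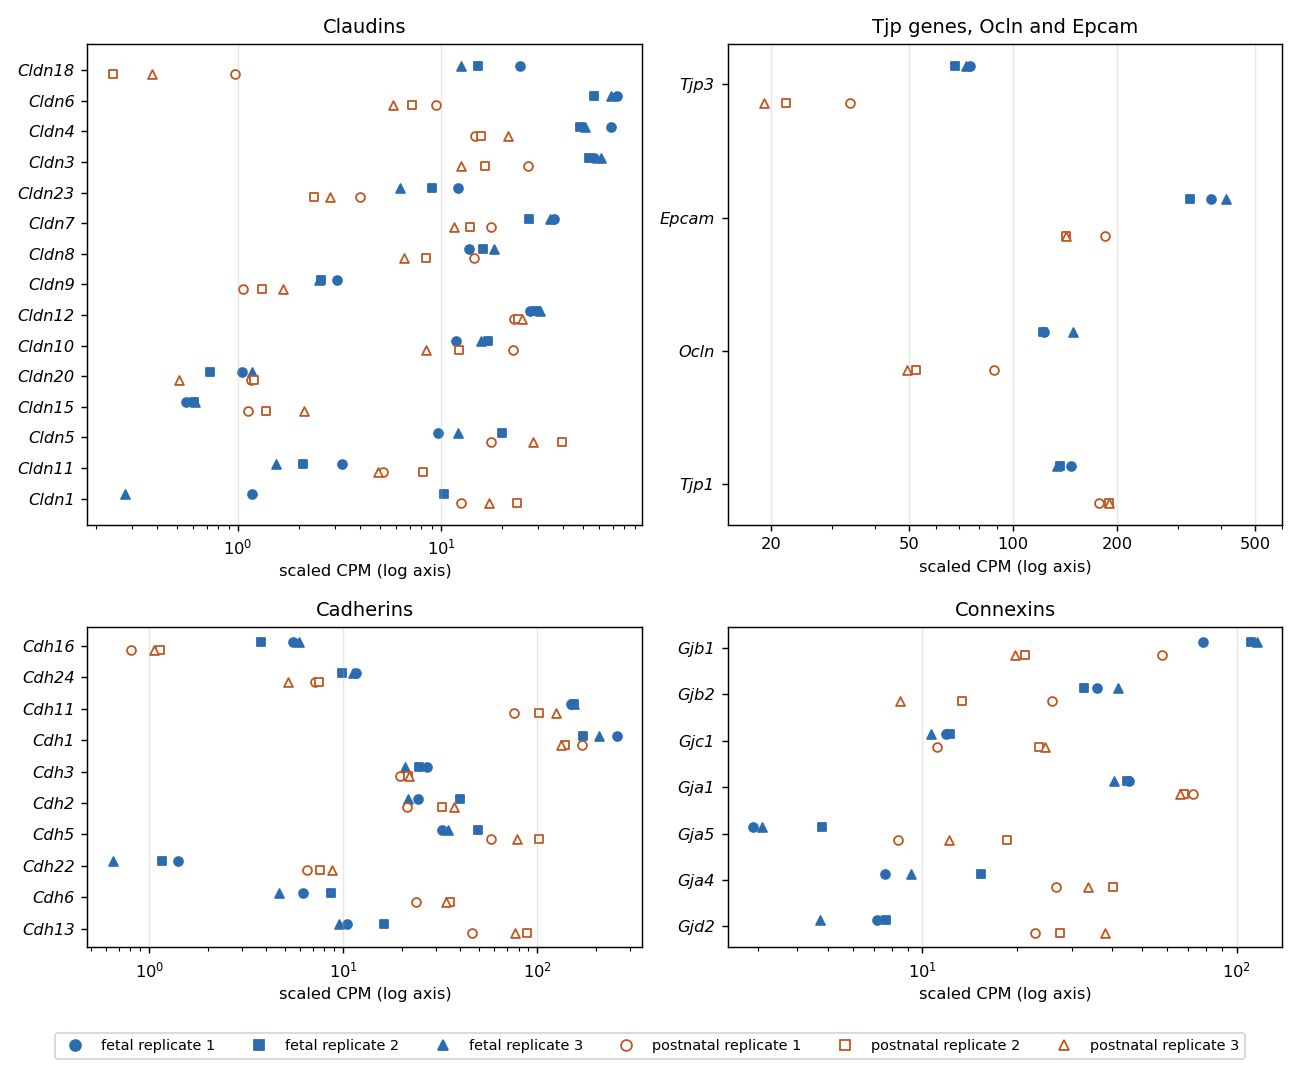
Scaled CPM (log axis) of the same 36 tested junction genes in each of the 6 libraries, by family and ordered by log2 difference, with filled symbols for fetal and open symbols for postnatal libraries. In Cldn18, Cldn6, Cldn4 and Cldn3 every fetal library lies above every postnatal one, and fetal replicate 2 stands apart from the other fetal libraries in Cldn1.

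Cell type markers moved in these libraries too, and their part in the fall of the epithelial genes was not tested. Duct markers, an epithelial list, summed to 377 to 423 scaled CPM before birth and to 453, 284 and 264 in postnatal replicates 1, 2 and 3. Of 7 duct markers tested, 2 fell, Krt19 and Muc1, and 0 rose, and 0 of the listed markers were at 0 in all libraries. Acinar markers, also epithelial, went the other way in their sum. They summed to 45360 to 68368 before birth and to 445028, 164506 and 157409 in postnatal replicates 1, 2 and 3. Of 11 acinar markers tested, 6 rose and 1 fell. Proliferation markers, of which 4 of 4 tested fell, summed to 3059 to 4162 before birth and 559 to 729 after.

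Among the other claudins called lower, Cldn12 differed by -0.27 ± 0.10 (adjusted p = 0.0413) without overlap and Cldn8 by -0.70 ± 0.26 (adjusted p = 0.0439) with overlap: its postnatal replicate 1, at 14.6 scaled CPM, lay above fetal replicate 1, at 13.7. With the replicate number as a block both calls ended (adjusted p = 0.0816 and 0.0795), as they did with edgeR (0.0557 and 0.0736). Cldn12 lost its call without fetal replicate 2 or 3 or any postnatal library (adjusted p 0.0629 to 0.121), and Cldn8 without any fetal library or postnatal replicate 2 or 3 (0.0589 to 0.135). Cldn10, which forms ion pores in secretory epithelium, was not called. It measured 11.9, 17.0 and 15.7 before birth and 22.6, 12.3 and 8.43 after (-0.13 ± 0.32, adjusted p = 0.732), with postnatal replicate 1 the highest of the 6 libraries and postnatal replicate 3 the lowest. Cldn20, near 1 scaled CPM throughout and within the span of Tfb1m in RefSeq, was not called either (-0.03 ± 0.20, adjusted p = 0.909).

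The claudins called higher after birth were Cldn1, Cldn5, Cldn11 and Cldn15. Cldn1, a barrier claudin of skin and many epithelia, measured 12.5, 23.6 and 17.3 in the postnatal libraries and 1.17, 10.3 and 0.277 in the fetal ones. The groups did not overlap, but fetal replicate 2 stood 14.3 times above the mean of the other fetal libraries, in the library where hepatocyte markers were 27.0 times above theirs. The log2 difference was 2.53 ± 0.72 (limma adjusted p = 0.0161). Without fetal replicate 2 it was 3.45 (adjusted p = 2.66e-04), while without fetal replicate 1 or 3 or postnatal replicate 2 the adjusted p was 0.0594, 0.0522 and 0.0529, and edgeR on the recovered reads gave 2.20 (adjusted p = 0.0895).

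Cldn11, the claudin of myelin and of the barrier in the testis, had 2.29 ± 0.876 scaled CPM before birth and 6.09 ± 1.82 after (log2 difference 1.11 ± 0.25, adjusted p = 0.00554), and its call ended with library sums set to 1000000 (0.84, adjusted p = 0.0576). Cldn15, which forms cation pores in gut epithelium, had 0.591 ± 0.034 and 1.54 ± 0.520 (0.65 ± 0.18, adjusted p = 0.0153). Neither gene showed overlap between the groups, and all fetal values of Cldn15 lay below the minimum used for testing. Cldn15 thus entered the test through the postnatal libraries alone, and its adjusted p is not taken as support for a change. With library sums set to 1000000 Cldn15 no longer entered the test. Cldn5 is given with the other genes of endothelium.

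The promoters of Cldn6, Cldn7, Epcam, Ocln and Cldn18, which fell, and of Gjd2, which rose, are printed as examples. Of the 64 junction genes 45 had an entry in the RefSeq promoter table of the rat assembly GRCr8, among them 12 of those called lower and 11 of those called higher. Each stretch is the 250 bases before the annotated start of the gene, 5′ to 3′ on the strand of the gene. Capitals mark CAGGTG or its reverse complement CACCTG, a form of the E-box that Snai and Zeb factors are known to bind. In the order printed, the stretches lie at chr10:13215558-13215807 (plus strand), chr10:55188420-55188669 (plus), chr6:12649679-12649928 (minus), chr2:33441199-33441448 (minus), chr8:109144620-109144869 (minus) and chr3:121229368-121229617 (minus).
Cldn6: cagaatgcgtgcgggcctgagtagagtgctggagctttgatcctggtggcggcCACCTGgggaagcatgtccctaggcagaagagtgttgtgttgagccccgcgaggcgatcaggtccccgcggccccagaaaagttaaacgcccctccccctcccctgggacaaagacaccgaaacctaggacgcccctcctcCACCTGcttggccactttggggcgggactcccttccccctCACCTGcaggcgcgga
Cldn7: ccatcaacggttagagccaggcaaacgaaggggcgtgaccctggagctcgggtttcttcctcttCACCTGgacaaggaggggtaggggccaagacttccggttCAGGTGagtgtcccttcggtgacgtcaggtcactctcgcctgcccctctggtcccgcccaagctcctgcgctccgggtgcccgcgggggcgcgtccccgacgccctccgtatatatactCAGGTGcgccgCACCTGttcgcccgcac
Epcam: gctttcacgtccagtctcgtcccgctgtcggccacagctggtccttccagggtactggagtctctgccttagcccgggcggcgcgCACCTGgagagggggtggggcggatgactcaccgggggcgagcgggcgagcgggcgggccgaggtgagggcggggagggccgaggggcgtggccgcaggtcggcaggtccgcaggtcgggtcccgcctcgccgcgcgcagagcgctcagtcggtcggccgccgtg
Ocln: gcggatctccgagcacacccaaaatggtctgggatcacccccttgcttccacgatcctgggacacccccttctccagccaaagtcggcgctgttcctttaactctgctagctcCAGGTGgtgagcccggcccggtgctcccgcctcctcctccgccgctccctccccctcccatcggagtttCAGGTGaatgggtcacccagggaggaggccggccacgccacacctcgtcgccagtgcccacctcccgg
Cldn18: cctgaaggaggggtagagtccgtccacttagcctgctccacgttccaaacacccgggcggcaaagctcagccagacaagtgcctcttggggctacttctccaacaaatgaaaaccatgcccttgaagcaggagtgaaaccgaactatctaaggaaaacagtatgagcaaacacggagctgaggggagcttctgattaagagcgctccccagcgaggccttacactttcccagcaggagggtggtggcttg
Gjd2: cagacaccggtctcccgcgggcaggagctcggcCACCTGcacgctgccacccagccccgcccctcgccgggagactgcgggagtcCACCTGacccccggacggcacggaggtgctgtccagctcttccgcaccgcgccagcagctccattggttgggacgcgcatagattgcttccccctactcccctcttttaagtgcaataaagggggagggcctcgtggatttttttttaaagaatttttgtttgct

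Cldn6 holds this E-box 3 times, beginning at -197, -56 and -16 from the start site, and Cldn7 holds it 4 times, at -186, -147, -28 and -17. Epcam holds 1 at -165 and Ocln 2 at -137 and -68. In Cldn18, which fell most, these letters do not occur in the window. Gjd2, which rose, holds 2 at -217 and -165. The printed promoters are thus mostly ones that hold the motif, and they are no sample of the genes that fell or rose. Among called claudins with an entry that is not printed, Cldn3 holds 1. Cldn1, Cldn5, Cldn8, Cldn11, Cldn12 and Cldn15 hold none.

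The E-box was present in 7 of the 12 promoters of genes called lower (Cldn3, Cldn6, Cldn7, Epcam, Gjb2, Ocln and Tjp3) and in 1 of the 11 of genes called higher (Gjd2). It occurs in 15.9% of the 33469 promoters of the table over the same 250 bases. The promoters of the genes called lower were also richer in G and C, with a median of 65% against 59.2% in those called higher and 51.2% in the whole table. The GC box GGGCGG was in 8 of 12 and 8 of 11 promoters, against 30.5% of the table.

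In all 15 motifs were searched, on both strands, and they were chosen after the expression values were known. The Grainyhead sequence AACCNGTT, in 1.76% of the table, and its looser form AACNNGTT, in 3.60%, which contains every match of the first, were in 0 of 12 promoters of lower genes and in 1 of 11 of higher genes, that of Tjp1. TATAAA (12.9% of the table) and the REST sequence CAGCACC (5.43%) were in 0 and 1, CCAAT (34%) in 3 and 3, AGATAA (10.3%) in 1 and 1, AGGAAG (29.5%) in 4 and 4, and CCGGAAGT (3.10%) in 1 and 0. The remaining motifs were in none of these promoters. They were TTCAGCACC (0.305% of the table), which contains the shorter form above, the forkhead sequence TGTTTAC (3.21% of the table), the SOX sequence ACAATGG (3.23%), and full-length sites for HNF1 (0.00299%) and NF-kB (0.0956%). A match is a run of letters and not a measured binding site.

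Among factors known to repress or maintain epithelial junction genes, listed apart from the junction genes, 3 of 13 tested were higher and 7 lower (median log2 difference -0.40). That is 76.9% called, against 63.1% of all genes tested. The higher ones were Zeb1, Zeb2 and Snai1, repressors that bind the E-box. Of the same family as Snai1, Snai2 was not called (-0.32, limma adjusted p = 0.146). Snai3 was not tested, with means of 0.996 scaled CPM before birth and 0.504 after. Zeb1 rose from 20.9, 23.1 and 15.8 to 35.8, 53.8 and 46.7 scaled CPM (1.15 ± 0.19, adjusted p = 0.00123) and Zeb2 from 44.7, 54.7 and 35.2 to 66.8, 132 and 103 (1.12 ± 0.26, adjusted p = 0.00620). Both are also expressed in mesenchymal and endothelial cells, whose markers rose in the same libraries, and their part was not tested. The largest falls were in St14, a membrane protease of epithelia (-1.38 ± 0.24, adjusted p = 0.00155), and Esrp2, an epithelial splicing factor (-1.29 ± 0.28, adjusted p = 0.00504). The Grainyhead factor Grhl2 fell as well (-1.20 ± 0.29, adjusted p = 0.00728).

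Of 10 cadherins tested 4 were higher and 4 lower, with a median log2 difference of -0.05. That is 80% called, against 63.1% of all genes tested. Their summed level over all 18 was 494 ± 29.1 scaled CPM before birth and 498 ± 59.1 after, and the ratio of the 2 means, 1.01, was 0.811 with library sums set to 1000000 and 1.19 without the 20 highest genes. The sum therefore has no direction that holds across scalings.

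Cdh1, the E-cadherin of all pancreatic epithelium, was lower after birth. It measured 258, 171 and 209 scaled CPM before birth and 169, 139 and 133 after, so that the lowest fetal library lay just above the highest postnatal one. The log2 difference was -0.52 ± 0.17 (limma adjusted p = 0.0272). The call ended without fetal replicate 1 (-0.37, adjusted p = 0.0767), fetal replicate 3, postnatal replicate 2 or postnatal replicate 3 (0.0706, 0.0834 and 0.0876), and without the 20 highest genes in the scaling (-0.28, adjusted p = 0.214).

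Cdh2, the N-cadherin of endocrine and neural cells, was not called. It had 24.3, 39.9 and 21.6 before birth and 21.3, 32.5 and 37.2 after, with the highest library in the fetal group (0.09 ± 0.27, adjusted p = 0.775). Without fetal replicate 2 and postnatal replicate 1 together it was called higher (0.58, adjusted p = 0.0103). Those libraries hold its highest fetal and its lowest postnatal value, so leaving them out separates the groups by itself. That call is therefore no support for a rise of Cdh2. Within libraries, the log2 ratio of Cdh2 to Cdh1 was -2.88 ± 0.70 before birth and -2.27 ± 0.59 after (SD, n = 3 each). That difference of 0.61 gave a two-sided exact permutation p of 0.2 (0.45 adjusted over 3 ratios), where 0.1 is the smallest p that 3 against 3 allow.

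Cdh16, a cadherin known from kidney tubules, fell most among the cadherins, from 5.50, 3.78 and 5.89 to 0.810, 1.14 and 1.06 scaled CPM. It was 5.05-fold lower in the mean without overlap (log2 difference -1.58 ± 0.18, adjusted p = 2.75e-04). Cdh24 was lower at 10.9 ± 0.969 against 6.64 ± 1.27 (-0.65 ± 0.16, adjusted p = 0.00925), and its call ended without the 20 highest genes in the scaling (adjusted p = 0.0610). Cdh11, the cadherin of mesenchymal cells, was lower too, at 149, 154 and 155 before birth and 75.9, 102 and 125 after (-0.62 ± 0.17, adjusted p = 0.0143).

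That direction of Cdh11 stands beside mesenchymal markers that rose, 7 of 8 tested, with sums of 1750 to 2599 scaled CPM before birth and 6963 to 12322 after. Without the 20 highest genes in the scaling the Cdh11 call ended (-0.38, adjusted p = 0.128). Cdh3, the P-cadherin gene next to Cdh1, was not called (24.1 ± 3.20 and 20.9 ± 1.21, log2 difference -0.19 ± 0.13, adjusted p = 0.222).

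The cadherins that rose include those of vessels and of neural and neuroendocrine cells. Cdh13, a cadherin held to the membrane by a lipid anchor and known from endothelium and smooth muscle, went from 10.4, 16.2 and 9.46 to 45.9, 88.1 and 77.0 scaled CPM. It was 5.85-fold higher in the mean with a wide gap between the groups (log2 difference 2.44 ± 0.27, adjusted p = 2.39e-04). Cdh6, a cadherin of kidney and nervous system, went from 6.23, 8.69 and 4.69 to 23.6, 35.4 and 33.8 (2.10 ± 0.23, adjusted p = 2.18e-04).

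Cdh22, known from brain and pituitary, lay close to the test minimum of 1 before birth, at 1.41, 1.16 and, below it, 0.647, and measured 6.53, 7.57 and 8.74 after. The mean was 7.09-fold higher (log2 difference 2.06 ± 0.19, adjusted p = 1.03e-04). Its postnatal order, lowest in replicate 1 and highest in replicate 3, was also that of the summed endocrine markers, which were 62314, 65205 and 115105 in the same libraries. The labelled weeks run in the same order. That order is not particular to Cdh22. It was also seen in Cldn4, Cldn9, Cldn12 and Cdh11, which were lower after birth, and in Gjd2, Tjp1 and Cldn15, which were higher. Cdh2, Cdh3 and Gjc1, which were not called, had it as well. Cdh6 and Cdh13 had their highest postnatal value in replicate 2, where the mesenchymal and the endothelial markers were highest.

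**Figure D3:**
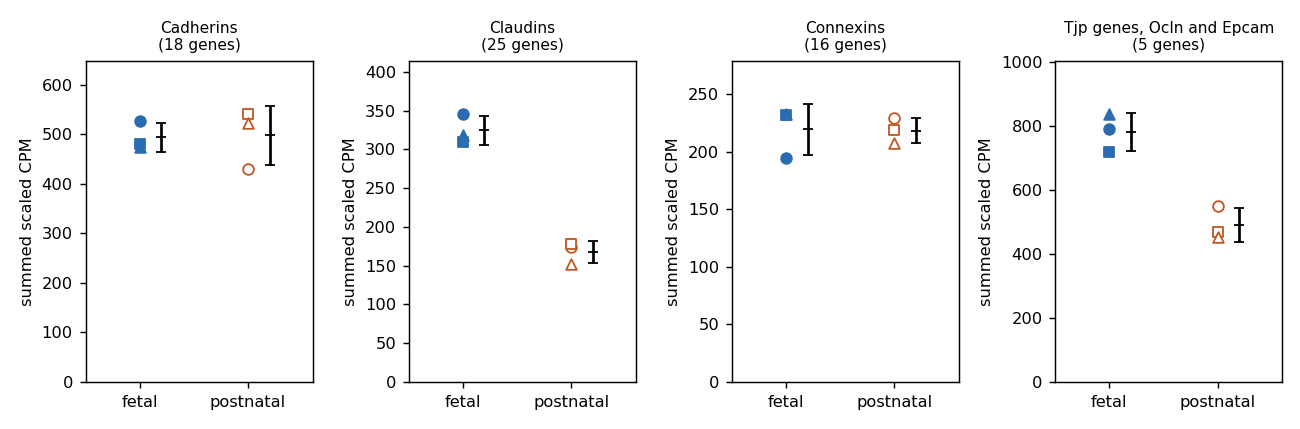
Summed scaled CPM of each family in each library, with bars for the mean and SD of the 3 libraries per group and symbols as in the plot of single genes. The claudin sums and the sums of Tjp genes, Ocln and Epcam separate fetal from postnatal libraries, and the cadherin and connexin sums overlap.

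Among the connexins, those of beta cells and vessels were higher after birth and those of acinar cells lower. Of 9 tested, 5 were higher and 3 lower, with a median log2 difference of 0.65. Called connexins made up 88.9% of those tested, against 63.1% of all genes tested. The sum over all 16 was 219 ± 22 scaled CPM before birth and 218 ± 10.9 after, a ratio of 0.994. With library sums set to 1000000 the ratio was 0.790 and without the 20 highest genes 1.18, in each case with no overlap between the groups.

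Gjd2, the connexin that couples beta cells, rose from 7.15, 7.65 and 4.72 to 22.8, 27.4 and 38.1 scaled CPM. It was 4.53-fold higher in the mean, with all postnatal libraries above all fetal ones (log2 difference 2.01 ± 0.23, limma adjusted p = 2.44e-04). Endocrine markers rose in the same libraries, 11 of 12 tested with a median log2 difference of 3.60, and Gjd2 was highest in postnatal replicate 3, as they were. The part of the endocrine share in the rise of Gjd2 was not tested.

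Gjb1 and Gjb2, the acinar connexins, were lower after birth. Gjb1 measured 78.0, 111 and 116 before birth and 57.9, 21.2 and 19.7 after (log2 difference -1.75 ± 0.38, adjusted p = 0.00496). Gjb2 measured 36.0, 32.5 and 41.9 before birth and 25.8, 13.4 and 8.47 after (-1.29 ± 0.34, adjusted p = 0.0112). Neither overlapped between groups, and both had a postnatal replicate 1 well above the other postnatal libraries, by 2.82 times for Gjb1 and 2.36 times for Gjb2.

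The same library held 2.76 times the acinar marker level of the other postnatal libraries, whose part was not tested. Of 11 acinar markers tested, 6 digestive enzyme genes were higher after birth, 4 were not called (Cpa1, Ctrb1, Rbpjl and Bhlha15) and 1 was lower. That 1 was Ptf1a, an acinar transcription factor, at 243, 187 and 341 before birth and 43.0, 22.6 and 20.2 after (-3.16 ± 0.31, adjusted p = 1.35e-04), the direction of both connexins. With the labelled week as a covariate the log2 difference was -1.0 for Gjb1 and -0.54 for Gjb2. Those values are differences at the earliest labelled week, that of the same library, and not the group difference corrected for age. The log2 ratio of Gjb1 to Gjb2 was 1.43 ± 0.32 before birth and 0.97 ± 0.29 after (difference -0.46, exact permutation p = 0.3, adjusted 0.45).

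Gja1, the most widespread connexin of mesenchymal and many other cells, measured 45.5, 44.7 and 40.8 before birth and 72.6, 68.0 and 66.1 after. The values were tight within each group and apart between them (log2 difference 0.65 ± 0.09, adjusted p = 6.61e-04), but with library sums set to 1000000 the call ended (0.30, adjusted p = 0.225).

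Gjc1, known from pacemaker and smooth muscle cells, was not called. It had 11.9, 12.2 and 10.6 before birth and 11.1, 23.4 and 24.5 after (log2 difference 0.64 ± 0.27, adjusted p = 0.0732), so that only postnatal replicate 1 lay among the fetal values. Without that library, whose removal by itself ends the overlap, the log2 difference was 0.99 (adjusted p = 3.45e-04). With all libraries, edgeR and DESeq2 on the recovered reads called Gjc1 (adjusted p = 0.0381 and 0.0134). With the labelled week as a covariate the log2 difference, then that at the earliest labelled week, was 0.11 (adjusted p = 0.708). The group difference with library sums set to 1000000 was 0.32 (adjusted p = 0.509).

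The 4 junction genes of vessel lining rose together with the endothelial markers. Cdh5, the cadherin of endothelial adherens junctions, went from 32.2, 49.2 and 34.7 to 58.0, 102 and 78.3 scaled CPM (log2 difference 1.01 ± 0.23, adjusted p = 0.00604). Gja4 went from 7.61, 15.3 and 9.19 to 26.5, 40.2 and 33.7 (1.59 ± 0.25, adjusted p = 0.00109). Gja5, which like Gja4 couples arterial endothelium, went from 2.89, 4.79 and 3.08 to 8.35, 18.5 and 12.2 (1.57 ± 0.28, adjusted p = 0.00199).

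In these 3 genes no fetal library reached a postnatal one. Cldn5, the claudin of endothelial tight junctions, had 9.61, 20.1 and 12.2 before birth and 17.7, 39.5 and 28.5 after, with fetal replicate 2 above postnatal replicate 1 (0.98 ± 0.33, adjusted p = 0.0323). Its call ended without any of fetal replicates 1 and 3 and postnatal replicates 2 and 3, with adjusted p between 0.0795 and 0.108. With library sums set to 1000000 the calls of Cdh5 and Cldn5 ended (log2 differences 0.66 and 0.65, adjusted p = 0.111 and 0.198), and those of Gja4 and Gja5 did not (1.26 and 1.28).

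Of 9 endothelial markers tested 9 rose, with a median log2 difference of 1.58 and sums of 255 to 406 scaled CPM before birth and 740 to 1102 after. All 4 junction genes were highest in fetal replicate 2 and postnatal replicate 2 of their group, as was the marker sum. Within libraries the log2 ratio of Cldn5 to Cdh5 was -1.45 ± 0.20 before birth and -1.48 ± 0.16 after, a difference of -0.03 (exact permutation p = 0.9, adjusted 0.9). Whether the junction genes rose per endothelial cell was not tested.

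**Figure D4:**
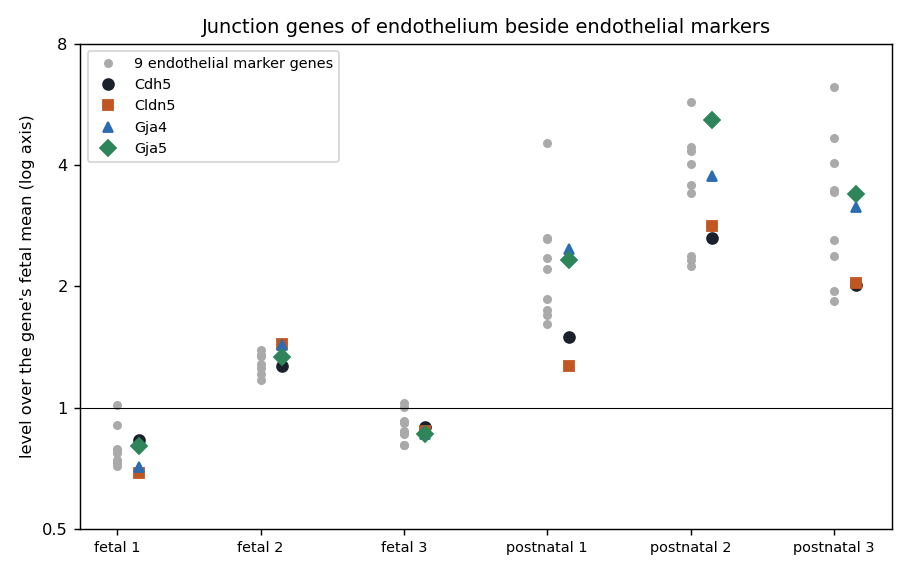
Level of Cdh5, Cldn5, Gja4 and Gja5 in each library over the fetal mean of each gene (log axis), with the 9 endothelial marker genes as grey points. The 4 junction genes and the markers are raised together in fetal replicate 2 among the fetal libraries, and in postnatal replicate 1 Cldn5 and Cdh5 lie below every marker.

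The partners of these proteins were read from the same fit. Of 14 catenin and nectin genes tested, which link cadherins to actin or adhere beside them, 3 were higher and 2 lower, with a median of -0.11. Only 35.7% were called, against 63.1% of all genes tested. Ctnnd2, a catenin of neural cells, rose from 2.49, 2.57 and 1.26 to 7.95, 10.5 and 14.1 scaled CPM (log2 difference 1.93 ± 0.25, adjusted p = 4.49e-04) and Vcl, the actin linker vinculin, rose by 0.81 ± 0.19 (adjusted p = 0.00612). Nectin2 fell by 0.52 (adjusted p = 0.00407) and Ctnna1 fell by 0.42 (adjusted p = 0.0103). Jup, Ctnnd1, Afdn and Arvcf, which bind cadherins or nectins inside the cell, lay between -0.18 and 0.09 and were not called.

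Of 25 tight junction scaffold and polarity genes 5 were higher and 10 lower, with a median of -0.16. That is 60% called, close to the 63.1% of all genes tested. Pard6a, among the higher calls, reached the minimum in the postnatal libraries alone. Cgn, the cingulin of epithelial tight junctions, fell from 139, 122 and 139 to 57.4, 37.9 and 35.2 scaled CPM (-1.63 ± 0.18, adjusted p = 2.24e-04), and the polarity kinase Prkci from 149, 149 and 159 to 83.3, 72.3 and 67.1 (-1.03 ± 0.11, adjusted p = 1.65e-04). The largest rises were in Jam2 (2.55 ± 0.24, adjusted p = 1.09e-04) and Jam3 (1.63 ± 0.19, adjusted p = 2.92e-04), adhesion molecules best known from endothelium. Jam2 went from 10.1, 15.9 and 9.56 to 53.6, 88.4 and 80.9, with its highest postnatal value in replicate 2, where the endothelial marker sum was highest. Esam, which rose by 1.58 ± 0.25, is in the list of endothelial markers as well.

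Of 9 desmosome genes tested 2 were higher and 2 lower, or 44.4% called, against 63.1% of all genes tested. Dsp, the desmoplakin that ties desmosomes to keratin, fell from 435, 424 and 418 to 255, 169 and 141 scaled CPM (-1.22 ± 0.20, adjusted p = 0.00141) while Pkp1, a plakophilin, measured 1.75, 1.11 and 1.08 before birth and 0.101, 0.516 and 0.478 after. Pkp1 is among the 2 lower calls, but it reached the minimum in the fetal libraries alone, so its call is no support for a change. Perp and Ppl rose by 0.57 ± 0.18 and 0.48 ± 0.13 (adjusted p = 0.0242 and 0.0124), while the desmosomal cadherins Dsg2 and Dsc2, at -0.15 and -0.11, were not called. Panx1, the 1 pannexin tested, was not called (-0.29).

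In the wider cadherin superfamily rises outnumbered falls. Of 20 protocadherin, Fat, Dchs, Celsr, cadherin-related and calsyntenin genes tested, 10 were higher and 5 lower, with a median of 0.70 against -0.03 for all genes tested. Called genes made up 75% of them, against 63.1% of all genes tested. Clstn3, a calsyntenin of synapses, rose from 4.51, 4.55 and 2.28 to 14.4, 16.2 and 22.2 scaled CPM (1.98 ± 0.25, adjusted p = 3.79e-04), and Pcdh15, a protocadherin of sensory hair cells, rose by 1.94 ± 0.32 (adjusted p = 0.00140). Fat2 fell by 1.29 (adjusted p = 0.00939) and Pcdh18 fell by 1.10 (adjusted p = 8.74e-04). The catenin Ctnnb1, the claudin Cldn2 and the endothelial marker Pecam1 are not analysed here.

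**Figure D5:**
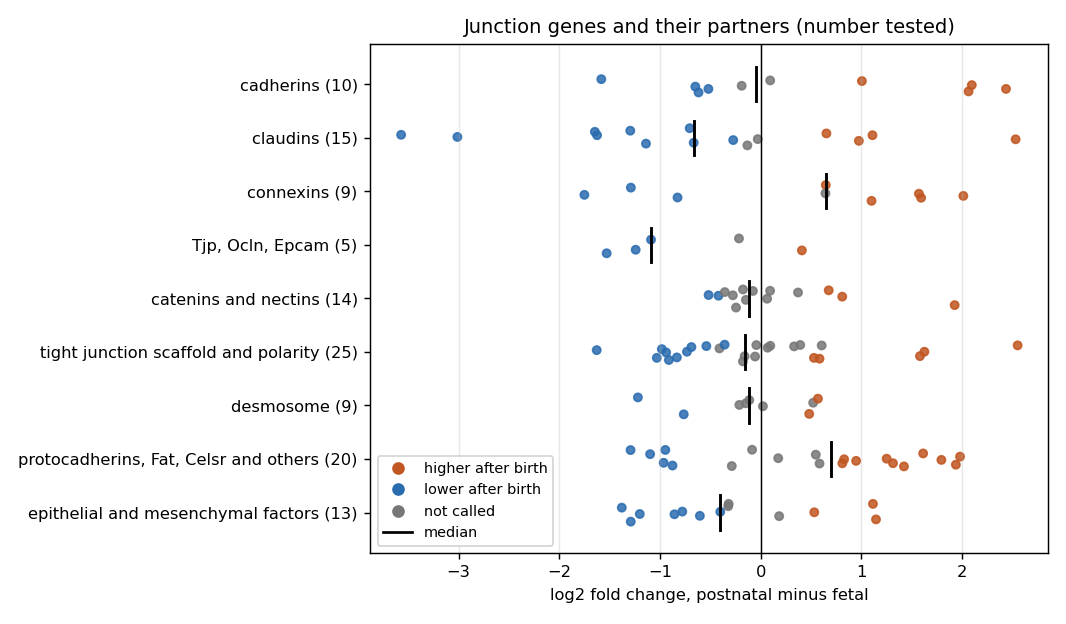
Log2 difference, postnatal minus fetal, of every tested gene of the 4 junction families and of 5 lists of partner genes, with the number tested in parentheses and a black bar for the median. Medians lie at -0.67 for the claudins, 0.65 for the connexins and 0.70 for the protocadherins and their relatives, and Jam2 is the highest point of the tight junction scaffold list.

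Of the 64 junction genes 25 did not reach the minimum for testing, and 4 of them, Cldn34b, Cldn34c4 and Cldn34d among these, had no read in any library. Cdh9, Cdh10, Cdh12, Cdh15, Cdh17, Cldn17, Cldn19, Cldn22, Cldn24, Cldn34a, Gja10, Gjb6 and Gjd4 had reads with overlap between the groups. Gja3, Cdh18, Gjc3, Cldn14, Cldn34e, Cdh20 and Cdh7 did not overlap between the groups. How often untested genes do so in the whole table was not counted, so their number is not read as a result. Gja3, best known from the eye lens, held 26, 37 and 86 reads before birth and 1, 9 and 10 after, and its 2.65 scaled CPM in fetal replicate 3 was the highest value of an untested junction gene. Cdh18 held 25, 27 and 21 reads and then 3, 5 and 3, Gjc3 held 18, 23 and 32 and then 2, 9 and 6, and Cldn14 held 4, 13 and 2 and then 0 in every library. Cldn34e held 1 read in each fetal library and 0 in each postnatal one, a difference not detectable at this depth. Cdh20 held 5, 3 and 1 reads before birth and 8, 20 and 17 after, and Cdh7 held 18, 11 and 11 and then 22, 20 and 23. Cdh17, a cadherin of gut epithelium, held at most 11 reads in any library.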

How the data were processed

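Total RNA was extracted from islets with TRIzol and RNeasy columns, and ribosomal RNA was depleted in a stranded total RNA kit (TruSeq, Ribo-Zero Gold), per the labels' protocols. TopHat2 2.0.8b and edgeR 3.30.3 are named in the submitters' processing notes, without their roles. The strand setting of the counting is not given in the sources used here, and the same holds for genome build, annotation and counter. Overlapping genes, which concern 11 of the 39 tested junction genes in RefSeq, may therefore share reads.

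The authors deposited 1 normalized signal per gene and library, with no unit in the header. All of the values (100%) were whole reads within 0.001 times 1 constant per library, and TMM factors recomputed from these reads matched the constants, so the signal is called scaled CPM. A row without a gene name, at most 3.19e-05% of a library, was left out of the tests. 1 read was worth 0.0242 to 0.0506 scaled CPM, and intervals in reads would cover counting error only.

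The log2 of each value plus 1 was compared between 3 and 3 libraries by limma 3.58.1 (R 4.3.3) with a trended prior that was not robust and group as the only term, two-sided, over genes with at least 1 in at least 3 libraries, with Benjamini-Hochberg adjustment over all of them and calls under 0.05. Fold changes on this scale understate those of low genes. Replicates of a group differed by far more than sampling noise, with a chi-square per degree of freedom between their reads of 45.6 to 370. Their correlation across genes was 0.970 to 0.988. Ratios between genes used exact permutation tests. Of 196 list entries 171 were in the table. Counts, medians and sums cover every gene of the rule, but 5 genes are not reported here by name or in the plots of single genes. Genes given by library are genes fixed by name and the 3 largest rises and falls of each family. For partner lists, the 2 largest changes in each direction are named. Esam, Snai1, Snai2, Snai3, Grhl2, Pard6a, Prkci, Jup, Ctnnd1, Afdn, Arvcf, Dsg2 and Dsc2 were named after their values were seen. The genes and lists were chosen with earlier results of these data known. Promoters are those of RefSeq on GRCr8, the first entry where a gene had more than 1. Alternatives were 3 pseudocounts, 2 filters, 3 scalings, a robust trend, a replicate block, the labelled week, left-out libraries, and count tests of the recovered reads by edgeR 4.0.16 or DESeq2 1.42.0. The fit was tested on simulated data.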

Additional observations from a re-analysis of the deposited data

How the results depend on the processing

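With 20 alternatives run, the number of junction genes called higher was 14 with the deposited scaling and 8 with library sums set to 1000000, where the number over all genes went from 3874 to 1780. Leaving out 1 library at a time gave 11 to 14 junction genes higher and 14 to 18 lower, and 2863 to 3600 and 3518 to 4454 over all genes, with fewer samples in each fit. The replicate numbers do not pair the libraries (correlations of same-numbered libraries -0.207, 0.102 and -0.253), and with the replicate block 14 junction genes were higher and 17 lower, and 3563 and 3863 over all genes; the calls of Cldn12 and Cldn8 ended. With the labelled week as a covariate, where the difference is that at the earliest labelled week, 10 were higher and 14 lower. Changes of direction were seen in genes that were not called, and their cause was not tested. Cdh2 was -0.24 with library sums set to 1000000, -0.29 with the week, and between -0.076 (without fetal replicate 3) and 0.35 without 1 library, with -0.066 without postnatal replicate 3. Without the 20 highest genes Cdh3 was 0.041, Cldn10 0.091 and Cldn20 0.085. Cldn10 was 0.53 with the week and between -0.49 and 0.17 (without postnatal replicate 3) without 1 library. Cldn20 was 0.23 with the week, 0.0075 with edgeR, 0.0072 with DESeq2, and between -0.12 and 0.15 without 1 library, below 0 in the deposited scaling and above it without fetal replicate 3 or postnatal replicate 3. The difference in the log2 ratio of Cldn5 to Cdh5 was 0.00087 with a pseudocount of 0.1 and ranged from -0.13 to 0.066 without 1 library; that of Cdh2 to Cdh1 ranged from 0.38 to 1.02 and that of Gjb1 to Gjb2 from -0.63 to -0.29. Genes near the minimum, Cldn18 and Cldn15 among them, gave no value where a left-out library, a stricter filter or, for Cldn15, library sums set to 1000000 removed them from the test. The 25 untested genes reached 1 scaled CPM in fewer than 3 libraries, a limit of level and not of depth, and most held few reads.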

Other observations

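Several junction genes lie next to each other in the RefSeq gene order, and 16 such pairs, with at most 2 coding genes between them, were found. In Cldn3 with Cldn4 and in Cldn6 with Cldn9 both genes were lower after birth. In Cdh5 with Cdh11 the neighbours were called in opposite directions, with log2 differences of 1.01 and -0.62. Gjb6, next to Gjb2, was not tested, at 10, 10 and 3 reads before birth and 4, 37 and 17 after.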
